A study of Mus musculus with 25 samples.

Results

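Gene expression in the hippocampus was compared between postnatal day 14 (P14) and postnatal day 24 (P24) in mice of the strain 129S6/SvEvTac (129S6), by RNA-seq of pooled tissue. The comparison uses the 11 libraries of this strain among the 25 of the series, chosen by their titles and not by any measured value. At P24 these are 3 libraries labelled Scn1a+/- and 3 labelled wild type, and at P14 they are 3 labelled Scn1a+/- and 2 labelled wild type. Every pool of the 11 held hippocampi of 12 to 16 mice without seizures. Scn1a encodes the alpha subunit of the sodium channel Nav1.1, and mice lacking a working copy are a model of Dravet syndrome, a severe childhood epilepsy. The labels give neither the allele nor the litters, sex or collection dates of the pools. The series also holds F1 offspring of 129S6/SvEvTac and C57BL/6 mice at both ages, of which 11 libraries without seizures serve here as a second strain (3 labelled Scn1a+/- and 3 wild type at P14, 2 labelled Scn1a+/- and 3 wild type at P24), while 3 P24 F1 libraries from mice with seizures, pooled from 3 to 4 mice, enter no comparison. Each age was averaged over its labelled genotypes with equal weight, so that an exchange of the P24 genotype labels leaves the result as it is.

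Between these ages the rodent hippocampus passes from eye opening to weaning. Many oligodendrocyte precursors stop dividing, pass through a premyelinating stage and wrap axons, a step that draws on cholesterol made within the tissue. Neurogenesis, by then confined to the dentate gyrus, slows, axons stop growing, and subunits of receptors and channels are exchanged for their adult forms. Capillaries stop sprouting, and a matrix of lecticans and link proteins forms around synapses and some interneurons.

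Scn1a, at chromosome 2, 66270781 to 66440837 (GRCm38.p6, the assembly of mm10), was examined first, as a check of the labels. At P14 it measured 98.2 ± 5.22 CPM (read counts per 1e6 of a library, on TMM-scaled totals) in the libraries labelled Scn1a+/- (SD, n = 3) and 111 ± 5.38 CPM in those labelled wild type (n = 2). At P24 the order was the opposite, 139.6 ± 5.14 CPM in libraries labelled Scn1a+/- (n = 3) against 109.9 ± 0.743 CPM in libraries labelled wild type (n = 3). The P24 libraries of this strain therefore went against their labels, the names of their deposited files give the opposite genotype, and they are called by their labels here. Averaged over labels, Scn1a was 1.18-fold higher at P24, a log2 fold change of 0.24 ± 0.04 (standard error, as after every ± on a log2 value below), with an adjusted p of 9.63e-06 in edgeR's quasi-likelihood test. The libraries of the ages overlapped, from 92.3 to 115 CPM at P14 and 109 to 144 CPM at P24. Within libraries labelled wild type the age difference of Scn1a was -0.02 with an adjusted p of 0.878 in the same test. That value depends on the P24 labels. With these exchanged, mean Scn1a was higher at P24 in both genotypes, at 109.9 against 98.2 CPM and at 139.6 against 111 CPM.

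Total counts ran from 10745366 to 21637211 per library at P14 and from 9864675 to 25520050 at P24. The 10 most abundant genes took 3.74 to 3.98% of the counts of P14 libraries and 4.4 to 4.79% of those of P24 libraries. Markers of hippocampal neurons were present in every library, with Prox1 of dentate granule cells between 87.1 and 112 CPM, Fibcd1 of CA1 between 102 and 154, Grik4 of CA3 between 55.1 and 65.3, and Gad1 of inhibitory neurons between 143 and 204. Choroid plexus was present as well, with its transthyretin gene Ttr between 665 and 1197 CPM, and the hemoglobin genes Hba-a1, Hba-a2 and Hbb-bs are listed at 0 in all 11 libraries. The tested blood cell genes summed to 11.4 to 16.0 CPM at P14 and 6.68 to 8.28 CPM at P24. The zeros of the hemoglobin genes therefore do not show that blood was absent. In bulk tissue, more cells of a type and more RNA per cell cannot be told apart. The labels give no batch, so age and any batch of dissection or sequencing cannot be told apart either. No source used here says how far pools of a group were separate, and the p-values cover only pool to pool variation. Of the P24 libraries, that labelled Scn1a+/- replicate 2 differed most from its group, and without it 6073 genes passed the test in place of 6446. Leaving out any 1 of the 11 libraries lowered this count, to between 5564 and 6287, so the drop was not particular to that library.

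Of 15690 genes tested, 6446 differed between the ages at a Benjamini-Hochberg adjusted p under 0.05 in edgeR, 3168 higher at P24 (20.2% of genes tested) and 3278 lower (20.9%). Most of these differences were small. A change of at least 1.5-fold was seen in 1309 of them, 498 higher (3.17% of genes tested) and 811 lower (5.17%), and the median absolute log2 change over the 6446 was 0.30. A change of at least 2-fold was reached by 167 genes that rose and 300 that fell, and one of at least 4-fold by 19 that rose and 30 that fell. In 24.7% of genes tested, all 6 P24 libraries lay on one side of all 5 P14 libraries, 1864 above and 2019 below. The median log2 change over all genes tested was 0.0003. These are the shares and the median against which the counts of each gene group below should be read. Values in parentheses after a gene, and those after "rose by", are log2 fold changes, P24 minus P14, with their standard errors. The plot of log2 changes by gene group shows every tested member of the groups described below.

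**Figure D1:**
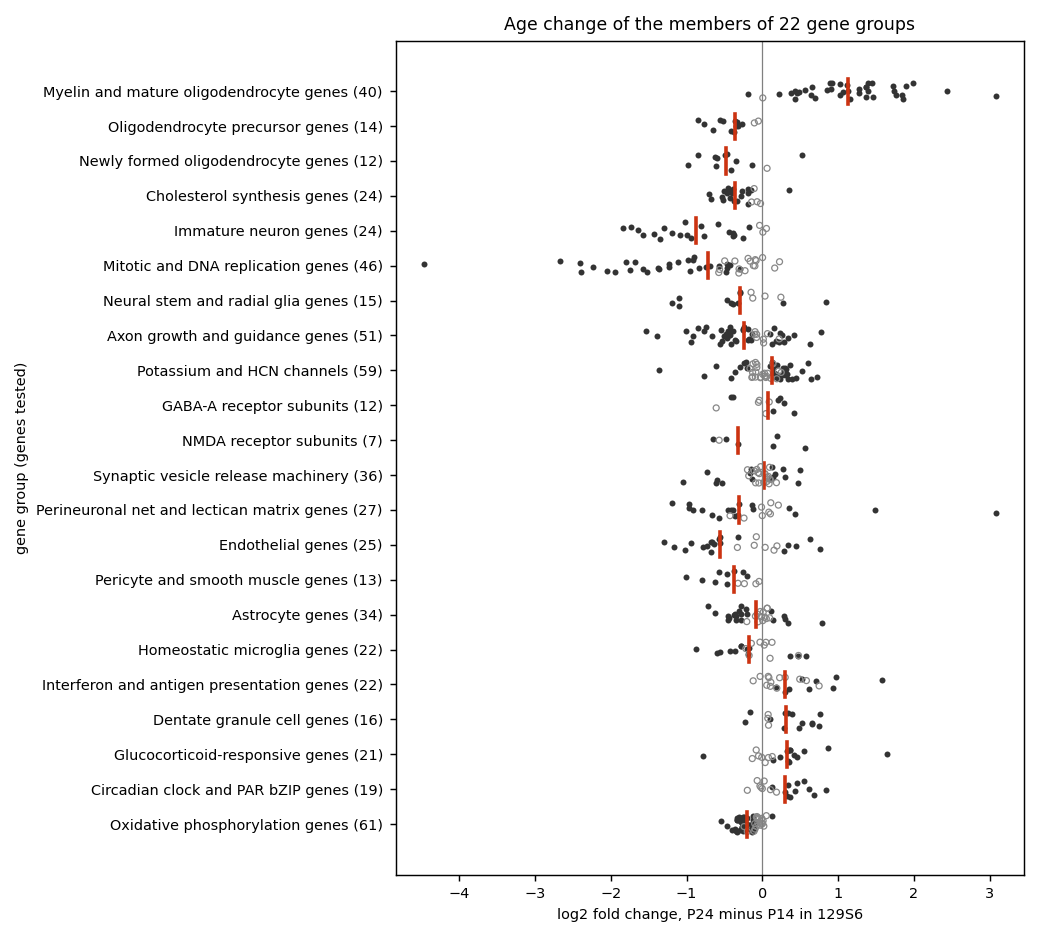
Log2 fold change, P24 minus P14 in 129S6, of each tested member of 22 gene groups (points, filled where the adjusted p was under 0.05 and open otherwise) with the median of each group (vertical bar). Myelin genes lie almost wholly to the right of 0, with a median of 1.12, and immature neuron and mitotic genes almost wholly to the left, with medians of -0.88 and -0.72.

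Myelin genes rose together. Of 40 tested genes of mature oligodendrocytes and myelin, 38 were higher at P24 and 1 lower, 31 of the 38 by at least 1.5-fold, with a median log2 change of 1.12, and the 38 also had P24 libraries wholly above P14 libraries. Their summed level was 7352 to 8232 CPM in P14 libraries and 15180 to 16760 CPM in P24 libraries. Mbp, myelin basic protein, which holds the cytoplasmic faces of the sheath together, counted 3567, 3734, 3875, 3584 and 4099 CPM in the 5 P14 libraries. At P24 its lowest, median and highest libraries were at 6695, 7035 and 7977 CPM, a log2 change of 0.92 ± 0.06 (adjusted p 1.88e-18). It was the largest gain in CPM of all genes named by the rule, and no P24 library came near a P14 library.

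Mal and Hapln2 were among the 12 steepest rises of all genes that met the rule for naming. Mal, a proteolipid that sorts myelin proteins to the membrane (chromosome 2, 127633226 to 127656695), counted 100.1, 98.3, 106, 94.0 and 121 CPM at P14 and 511, 572 and 586 CPM at P24 (lowest, median, highest). Its change was 5.40-fold (log2 2.43 ± 0.06, adjusted p 1.50e-33), and the ages were far apart. Hapln2, the link protein of nodes of Ranvier (chromosome 3, 88020558 to 88027511), was at 0.729 to 1.71 CPM in P14 libraries and 9.09 to 12.0 CPM in P24 libraries, a log2 change of 3.08 ± 0.16 (adjusted p 5.26e-22). Ermn, a cytoskeletal protein of the outer sheath, rose by 1.86 ± 0.06, Aspa, which splits N-acetylaspartate to supply acetate for lipids, by 1.99 ± 0.10, Ndrg1 by 1.75 ± 0.06, and Mobp, a protein of the major dense line, by 1.39 ± 0.05. Of the 2 tested members that did not rise, Pllp was at 0.0046 and was not called, and Gal3st1, the sulfotransferase that makes sulfatide, fell (-0.20 ± 0.08) with overlapping libraries (24.3 to 29.1 against 20.6 to 25.8 CPM). Pllp was named after its value was seen.

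Earlier stages of the same lineage went the other way. Of 14 tested precursor genes 12 fell and 0 rose, with a median of -0.37, and of 12 genes of newly formed oligodendrocytes 10 fell and 1 rose, with a median of -0.48. Pdgfra, the growth factor receptor that marks precursors, counted 142, 149, 150.0, 144 and 139 CPM at P14 and 102, 112 and 115 CPM at P24 (lowest, median, highest), a log2 change of -0.38 ± 0.04 (adjusted p 1.49e-10). Gpr17, a receptor of the premyelinating stage, counted 291, 297, 305, 286 and 281 CPM at P14 and 141, 149 and 154 CPM at P24, which is -0.98 ± 0.04 (adjusted p 1.08e-24). For both genes every P24 library lay below every P14 library. C1ql1 (-0.77 ± 0.07), Lhfpl3 (-0.65 ± 0.06) and Ptprz1 (-0.52 ± 0.04) fell among precursor genes, and Rras2 (-0.63 ± 0.05), Neu4 (-0.60 ± 0.06) and Fyn (-0.35 ± 0.04) among those of newly formed cells. The member that rose, Cyfip2 (0.53 ± 0.04), is also a neuronal regulator of actin.

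Genes of cholesterol synthesis fell while myelin genes rose. Of 24 tested genes, 19 were lower at P24 and 1 higher, with a median of -0.36, but only 2 of the 19 reached 1.5-fold. Their summed level was 1893 to 1968 CPM at P14 and 1426 to 1527 CPM at P24, with no overlap. Hmgcs1, which makes the HMG-CoA that enters the pathway (chromosome 13, 119690351 to 119708260), counted 552, 566, 576, 532 and 544 CPM at P14 and 326, 329.6 and 356 CPM at P24 (lowest, median, highest). Its log2 change was -0.71 ± 0.04 (adjusted p 1.88e-20), with every P24 library below every P14 library. Sqle, the squalene epoxidase (-0.45 ± 0.05), and Tm7sf2, a sterol reductase (-0.68 ± 0.06), also fell. SREBP2 is the factor known to drive these genes through a sterol element, and the promoter of Hmgcs1 is shown because it holds the letters of such an element. It is the RefSeq sequence of GRCm38.p6, plus strand, chr13:119690101-119690350, the 250 bases before the start, with the match to TCACCCCAC in capitals.
Hmgcs1: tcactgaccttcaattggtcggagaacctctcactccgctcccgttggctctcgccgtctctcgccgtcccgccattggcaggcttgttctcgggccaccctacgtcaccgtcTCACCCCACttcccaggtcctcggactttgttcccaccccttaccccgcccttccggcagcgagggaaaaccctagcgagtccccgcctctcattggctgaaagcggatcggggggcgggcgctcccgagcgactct
The match lay on the gene strand with its first base at -137 from the start. TCACCCCAC or TCACCCCAT was found on either strand in 0.759% of 27025 promoters of 300 bases (250 before to 50 after the start, the first entry of each symbol). A share over the cholesterol genes is void, because 17 of the 24 had an entry, under the 80% required.

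**Figure D2:**
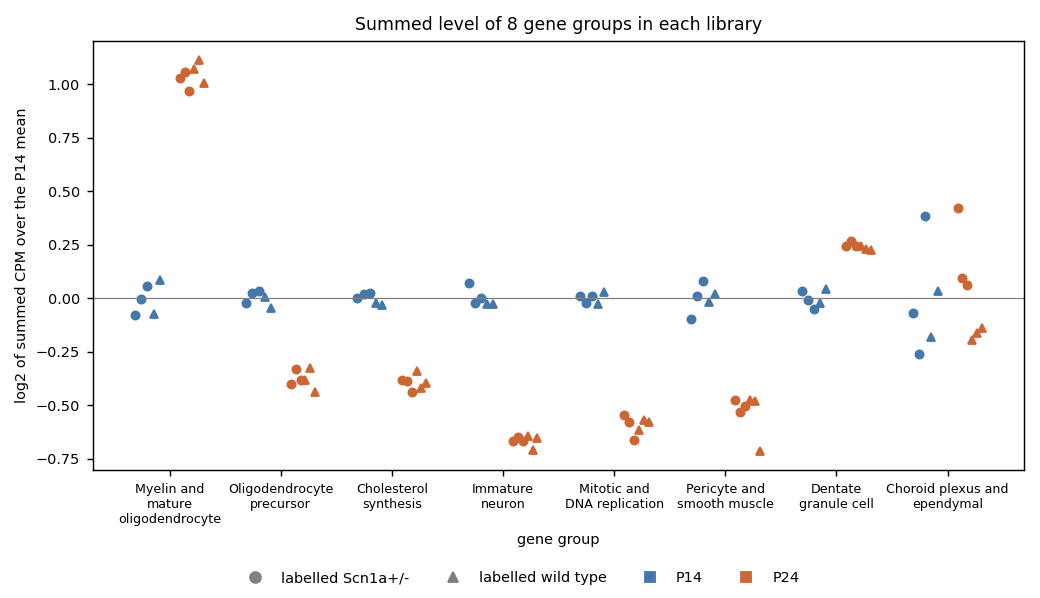
Summed CPM of 8 gene groups in each of the 11 libraries, as the log2 ratio to the mean of the 5 P14 libraries (circles for libraries labelled Scn1a+/-, triangles for those labelled wild type). The myelin sum lies about 1 log2 unit above 0 in all 6 P24 libraries, while the sums of precursor, cholesterol, immature neuron, mitotic and pericyte genes lie below 0 in all 6.

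Genes of young neurons fell without exception among those called. Of 24 tested, 21 were lower at P24 and 0 higher, 14 of them by at least 1.5-fold, with a median of -0.88. Dcx, doublecortin, the microtubule protein of migrating neurons (chromosome X, 143855842 to 143933396), counted 166, 163, 172, 156 and 165 CPM at P14 and 60.4, 62.9 and 69.5 CPM at P24 (lowest, median, highest), a log2 change of -1.36 ± 0.05 (adjusted p 2.37e-27). Nrep counted 393, 405, 426, 405 and 428 CPM at P14 and 119.6, 131 and 148 CPM at P24, a log2 change of -1.65 ± 0.05 (adjusted p 8.31e-32). Neither gene had a P24 library within reach of the P14 range. The tubulin genes Tuba1a (-0.95 ± 0.04) and Tubb2b (-1.09 ± 0.05) of this group, which build the microtubules of growing processes, fell as well. Among radial glia and stem cell genes 9 of 15 fell and 2 rose, led by Fabp7, a fatty acid binding protein (-1.10 ± 0.05), Tnc, the matrix protein tenascin C (-1.20 ± 0.09), and Nes, the intermediate filament nestin (-1.10 ± 0.08). Lpar1, counted in that group and also made by oligodendrocytes, rose by 0.84 ± 0.06.

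Genes of dividing cells fell too. Of 46 tested mitotic and replication genes 30 were lower at P24 and 0 higher, 24 of them by at least 1.5-fold, with a median of -0.72, and their summed level was 208 to 216 CPM at P14 and 134 to 145 CPM at P24. All 6 minichromosome maintenance genes, the helicase of replication, lay between -0.70 and -0.10, and 2 of the 6 were called. Top2a, which untangles chromosomes (chromosome 11, 98992947 to 99024199), counted 9.54, 9.21, 7.29, 6.73 and 9.44 CPM at P14 and 1.69, 2.64 and 2.93 CPM at P24 (lowest, median, highest), a log2 change of -1.80 ± 0.15 (adjusted p 9.52e-14). Cdk1, the kinase of mitotic entry (chromosome 10, 69335146 to 69352912), counted 2.53, 3.73, 2.14, 2.52 and 3.68 CPM at P14 and 0.153, 0.781 and 1.25 CPM at P24, a log2 change of -2.04 ± 0.29 (adjusted p 9.62e-08). The ages did not overlap for either gene, though levels this low rest on few counts per library. Mki67, the antigen Ki-67 (-1.37 ± 0.11), Cenpf, a kinetochore protein (-1.58 ± 0.14), Pbk, a mitotic kinase (-1.95 ± 0.24), and Bub1b, a checkpoint kinase (-2.41 ± 0.25), also fell. Hmmr, a spindle protein outside the list, fell (-2.61 ± 0.27).

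Promoters of mitotic genes are known for CHR elements with CCAAT boxes nearby, and those of replication genes for E2F sites. The promoters of Cdk1 and Top2a are shown because both genes fell steeply and both hold the CHR letters. They are RefSeq sequences of GRCm38.p6, minus strand, chr10:69352913-69353162 for Cdk1 and chr11:99024190-99024439 for Top2a, the 250 bases before the start. For Top2a the start listed first lies 10 bases inside the RefSeq span of the gene. Capitals mark the CHR letters TTTGAA, the CCAAT letters, and the E2F-like letters TTTGGCGC, TTTCCCGC, TTTCGCGC or TTTGCCGC, on either strand, so that CCAAT on the other strand reads ATTGG.
Cdk1: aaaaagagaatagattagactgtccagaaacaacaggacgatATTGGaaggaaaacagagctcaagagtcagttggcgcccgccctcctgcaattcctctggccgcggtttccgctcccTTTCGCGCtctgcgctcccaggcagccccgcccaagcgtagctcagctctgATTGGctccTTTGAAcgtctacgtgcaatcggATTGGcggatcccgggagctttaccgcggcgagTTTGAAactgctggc
Top2a: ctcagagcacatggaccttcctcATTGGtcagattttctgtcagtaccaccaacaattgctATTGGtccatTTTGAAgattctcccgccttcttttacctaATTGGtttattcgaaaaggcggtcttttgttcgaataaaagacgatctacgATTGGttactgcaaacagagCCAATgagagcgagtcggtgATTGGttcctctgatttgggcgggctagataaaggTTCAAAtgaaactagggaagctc
In Cdk1 the CHR letters began at -71 and -15 on the gene strand, CCAAT was on the other strand at -208, -80 and -48, and TTTCGCGC began at -131. In Top2a the CHR letters began at -179 on the gene strand and at -23 on the other, with 6 CCAAT matches and no E2F-like letters in this window. Over 27025 promoters of 300 bases, the CHR letters were found on either strand in 18.1%, CCAAT in 37.9% and the E2F-like letters in 2.32%, and matches of different motifs could share bases. A share over the mitotic genes is void, because 36 of the 46 had an entry, under the 80% required. A match is a description of letters and was not tested as a site.

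Genes of axon growth and guidance divided, with 31 of 51 tested lower at P24, 12 higher and a median of -0.24. Growth cone proteins were among the falls. Dpysl3, a collapsin response mediator, counted 339, 304, 324, 306 and 300.1 CPM at P14 and 101, 108 and 114 CPM at P24 (lowest, median, highest), a log2 change of -1.54 ± 0.04 (adjusted p 8.31e-32). Its relative Dpysl5 (-1.39 ± 0.05), the growth-associated protein gene Gap43 (-0.92 ± 0.04), Marcksl1 (-0.94 ± 0.04) and Stmn2, whose product binds free tubulin (-0.85 ± 0.04), also fell. Stmn2 was among the largest losses in CPM, from 716 ± 27.4 CPM (SD, n = 5) to 395 ± 17.2 CPM (SD, n = 6). Slit1, a secreted guidance cue, rose by 0.78 ± 0.04, and Cntn2, a contactin of the juxtaparanode, by 0.62 ± 0.05. In a list of neurofilament, node and cytoskeleton genes, 9 of 19 fell and 2 rose, and the 2 were Cntnap1, the paranodal partner of contactin (0.47 ± 0.04), and Nrcam, a node adhesion protein (0.22 ± 0.04).

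Potassium channel genes rose more often than they fell. Of 59 tested potassium and HCN channel genes 27 were higher and 9 lower, with a median of 0.13, and only 3 in each direction reached 1.5-fold. The auxiliary beta subunits of Kv1 channels led, with Kcnab3 at 0.72 ± 0.08, Kcnab2 at 0.64 ± 0.04 and Kcnab1 at 0.60 ± 0.05. Kcna1, the Kv1.1 subunit of axons, counted 169.8, 159, 153, 158 and 166 CPM at P14 and 218, 229.6 and 248 CPM at P24 (lowest, median, highest), a log2 change of 0.53 ± 0.04 (adjusted p 3.14e-15), with no overlap. All 4 Kv3 genes, whose channels let interneurons fire fast, rose by 0.18 to 0.31, and all 3 tested Kir3 genes by 0.17 to 0.45. The HCN genes, pacemaker channels, did not share this: Hcn4 (-1.36 ± 0.22) and Hcn3 (-0.77 ± 0.09) fell, and the others of the 4 were not called. Kcnh3 (-0.29 ± 0.04) and Kcnk10 (-0.61 ± 0.11) also fell. Kv3 and Kir3 genes and the uncalled HCN genes were grouped after their values were seen.

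Sodium channel genes changed little. Of 7 tested alpha subunits 2 rose, Scn1a (above) and Scn8a, which encodes Nav1.6 of the axon initial segment and nodes (0.21 ± 0.04, adjusted p 1.75e-05). Scn3a, the embryonic Nav1.3, was at 0.04 ± 0.05 and was not called. Of 8 beta subunits and FGF homologous factors 3 rose, among them Scn2b (0.22 ± 0.04) and Scn4b (0.39 ± 0.08), and Fgf13 fell (-0.50 ± 0.04). Fgf13, an intracellular modulator of sodium channels, went from 550.3 ± 11.4 CPM (SD, n = 5) to 389 ± 11.6 CPM (SD, n = 6) with no overlap. Of 20 calcium channel subunit genes 6 rose and 3 fell, 2 of the 3 by at least 1.5-fold. Cacna1g, the T-type Cav3.1, and Cacng4, an auxiliary subunit of AMPA receptors, fell (-0.61 ± 0.05 and -0.97 ± 0.09), while Cacna1e, the R-type Cav2.3, rose by 0.27 ± 0.04.

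Among genes of fast inhibition, 5 of 12 tested GABA-A receptor subunits rose and 2 fell, and none of the 7 reached 1.5-fold. Gabrd, the delta subunit of extrasynaptic receptors, was at 0.41 ± 0.07 and Gabra4 at 0.23 ± 0.04. Gabrg1 (-0.41 ± 0.06) and Gabrg3 (-0.39 ± 0.15), which are gamma subunit genes, fell. Gad1, which makes GABA, counted 167, 159.5, 143, 149.9 and 154 CPM at P14 and 184, 197 and 204 CPM at P24 (lowest, median, highest), a log2 change of 0.34 ± 0.05 (adjusted p 1.53e-07). Slc6a11, the glial GABA transporter, fell (-0.42 ± 0.05). Of 15 genes of chloride transport 9 rose and 1 fell. Slc12a5 (KCC2, which extrudes chloride) rose by 0.30 ± 0.05 and Slc12a2 (NKCC1, which loads it) by 0.36 ± 0.04, so that both members of this pair were higher at P24.

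Glutamate receptor subunits moved in both directions. Of 7 tested NMDA receptor genes 3 rose and 3 fell. Grin2a, the subunit of mature receptors, counted 40.4, 41.1, 41.1, 34.0 and 35.6 CPM at P14 and 48.8, 55.2 and 62.5 CPM at P24 (lowest, median, highest), a log2 change of 0.56 ± 0.06 (adjusted p 1.48e-11), with no overlap. Grin2b, the subunit of young receptors, rose by 0.14 ± 0.06 (adjusted p 0.0398) with overlapping libraries, a call lost with DESeq2 and with scaling by library totals. The falls were in Grin2d (-0.65 ± 0.07), Grin3a (-0.48 ± 0.05) and Grin2c (-0.33 ± 0.05). Of 13 AMPA, kainate and delta receptor genes 4 rose and 5 fell, with Gria3 (0.42 ± 0.04), Gria1 (0.37 ± 0.04) and Gria2 (0.29 ± 0.04) of the AMPA receptor higher and Grik1 (-0.37 ± 0.08) and Grik3 (-0.30 ± 0.05) of the kainate receptor lower. Of 7 metabotropic receptor genes 3 rose and 2 fell, and Grm3, largely of astrocytes, was among the falls (-0.43 ± 0.06).

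For pairs of genes the log2 ratio of their CPM was taken within each library, where the depth of the library cancels. The 7 pairs given here are of 8 tested, and p-values were adjusted over the 8. In 4 of the 7 the P24 libraries differed from the P14 libraries by an exact two-sided permutation test, each with p = 0.00216, the smallest this design allows, and an adjusted p of 0.00346. Grin2a over Grin2b moved from -1.50 ± 0.14 (SD, n = 5) to -1.09 ± 0.08 (SD, n = 6), a rise of 0.41, and no P24 library was as low as a P14 library. Map1a over Map1b rose by 0.23 and Scn8a over Scn3a by 0.17. The widest shift was in link proteins, where Hapln4 over Hapln1 moved from -1.96 ± 0.31 (SD, n = 5) to 0.40 ± 0.18 (SD, n = 6). Hapln4 rose and Hapln1 fell, each without overlap of the ages (below). This ratio therefore had to separate, and its p adds nothing to the values of the single genes. Slc12a5 over Slc12a2 changed by -0.08 (exact permutation p = 0.338, adjusted 0.386), Nefh over Ina by -0.04 (p = 0.433) and Scn1a over Scn3a by 0.23 (p = 0.0714, adjusted 0.0952), and these did not pass.

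**Figure D3:**
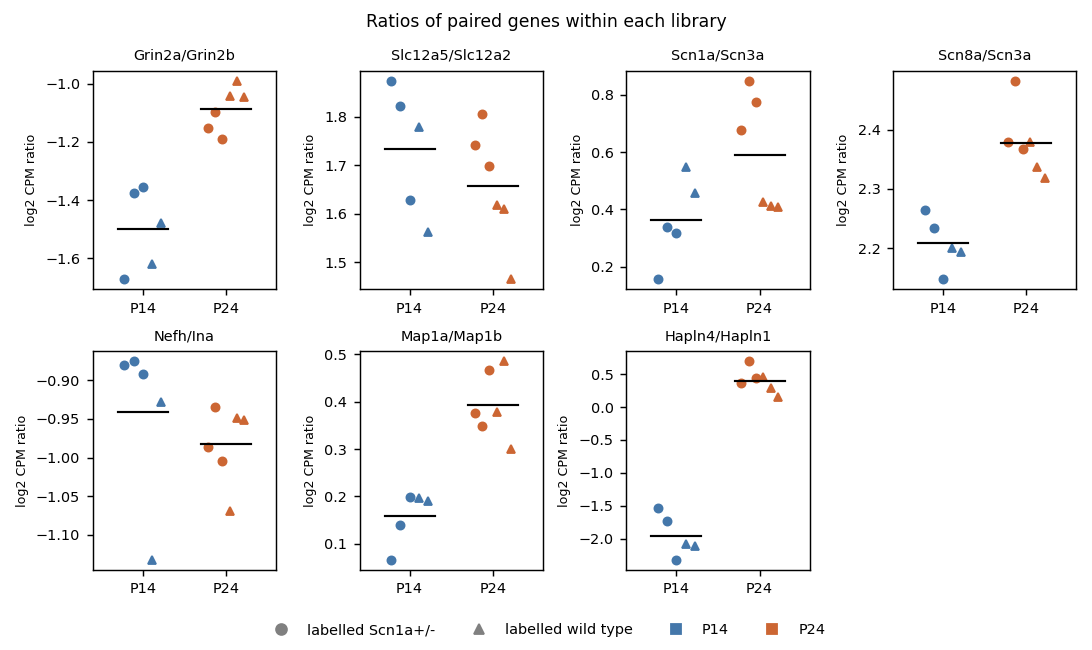
Log2 ratio of the CPM of 7 gene pairs in each of the 11 libraries (circles for libraries labelled Scn1a+/-, triangles for those labelled wild type), P14 and P24 side by side, with the mean of each age as a bar. The P24 libraries lie wholly above the P14 libraries for Hapln4/Hapln1, Grin2a/Grin2b, Map1a/Map1b and Scn8a/Scn3a.

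At the synapse, 8 of 36 tested genes of vesicle release rose and 8 fell, with a median of 0.02, close to the shares over all genes. Snap25, a SNARE of the plasma membrane, counted 1364, 1273, 1234, 1291 and 1299 CPM at P14 and 1708, 1780.0 and 1946 CPM at P24 (lowest, median, highest), a log2 change of 0.47 ± 0.05 (adjusted p 9.65e-12). Vamp1, a vesicle SNARE, rose by 0.50 ± 0.05. Unc13c, a priming factor (-1.05 ± 0.07), Syn3, the developmental synapsin (-0.61 ± 0.05), and Stx1a, the other plasma membrane SNARE (-0.61 ± 0.04), fell. Slc17a6, the vesicular transporter VGLUT2, fell (-0.73 ± 0.08). VGLUT2 is also a marker of thalamus, and of 12 tested thalamic and habenular genes 7 were lower at P24 and 0 higher. The summed level of those thalamic genes was 249 to 280 CPM at P14 and 186 to 207 CPM at P24, and their part in the result was not tested. The P14 library labelled Scn1a+/- replicate 2 held the most Slc17a6, 63.1 CPM against 46.3 to 46.9 CPM in the other 4, and without it the change was -0.65. Among 39 postsynaptic genes 15 rose and 12 fell, with Ppp1r9b, the spine protein spinophilin (0.50 ± 0.05), and Ppp3ca, the catalytic subunit of calcineurin (0.40 ± 0.04), higher and Camk4 (-0.80 ± 0.04) lower.

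Genes of the lecticans and of perineuronal nets mostly fell, 15 of 27 against 4 that rose, with a median of -0.31. Within this group the link proteins moved in opposite directions. Hapln1 (chromosome 13, 89540529 to 89611832) counted 129.6, 135, 152, 140.3 and 149.6 CPM at P14 and 68.5, 75.0 and 85.7 CPM at P24 (lowest, median, highest), a log2 change of -0.92 ± 0.05 (adjusted p 5.80e-21). Hapln4 (chromosome 8, 70083529 to 70090862), the brain-specific link protein of mature nets, counted 44.5, 40.5, 30.3, 33.1 and 34.7 CPM at P14 and 92.9, 98.4 and 111 CPM at P24, a log2 change of 1.48 ± 0.08 (adjusted p 2.49e-21). The ages did not overlap for either. Ncan, neurocan, the lectican of juvenile brain (-0.96 ± 0.04), and Reln, the reelin of Cajal-Retzius cells and interneurons (-0.57 ± 0.05), fell. The proteases Adamts4 (0.43 ± 0.08) and Adamts1 (0.35 ± 0.08), which cut lecticans, rose.

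**Figure D4:**
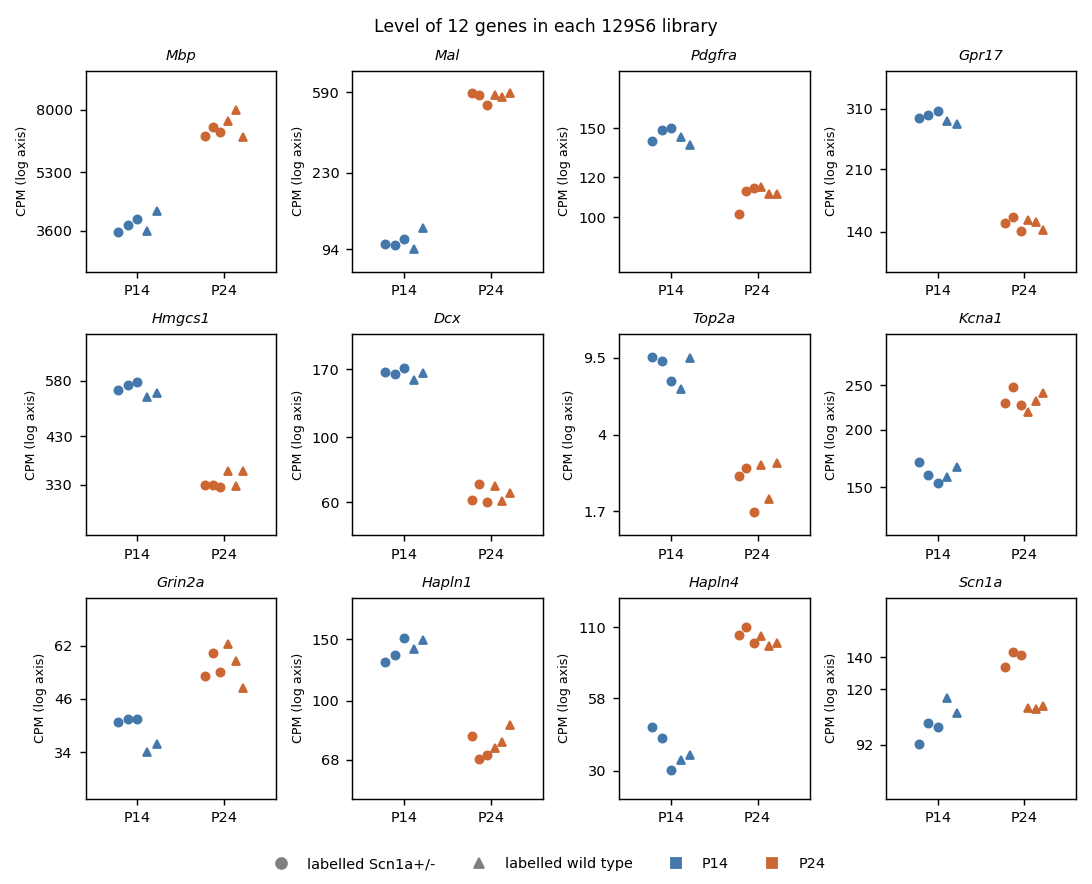
CPM of 12 genes in each of the 11 libraries (log axis, circles for libraries labelled Scn1a+/-, triangles for those labelled wild type), P14 and P24 side by side. For every gene shown except Scn1a the 6 P24 libraries lie wholly to one side of the 5 P14 libraries, and for Scn1a the ages overlap.

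Vessel genes mostly fell. Of 25 tested endothelial genes 14 were lower and 5 higher, 10 of the 14 by at least 1.5-fold, with a median of -0.56. Kdr, the main VEGF receptor, counted 28.0, 25.3, 28.5, 27.3 and 25.4 CPM at P14 and 9.36, 10.3 and 13.9 CPM at P24 (lowest, median, highest), a log2 change of -1.29 ± 0.09 (adjusted p 2.13e-17). Apln, a peptide of endothelial tip cells, fell (-1.17 ± 0.06). Its receptor Aplnr (chromosome 2, 85136360 to 85139923), which was not in the list, showed the steepest fall of all genes that met the rule for naming, with 9.98 to 11.4 CPM at P14 and 0.662 to 1.27 CPM at P24 (-3.50 ± 0.18, adjusted p 1.22e-21). Cldn5, the claudin of the blood-brain barrier, fell (-1.02 ± 0.06), and so did the transporter gene Slc7a5 of the same list. The transporter genes Slco1a4 (0.76 ± 0.06), Slc2a1 (0.33 ± 0.05) and Abcb1a (0.44 ± 0.09) rose, so transporter genes of the list moved in both directions. Of 13 pericyte and smooth muscle genes 9 fell and 0 rose, among them Rgs5 (62.1 to 69.3 CPM at P14 and 31.1 to 37.0 CPM at P24), and their summed level was 194 to 219.5 CPM at P14 and 127 to 149.5 CPM at P24. Of 37 collagen, basement membrane and fibroblast genes 18 fell and 2 rose, including Serpinh1, the collagen chaperone (-1.26 ± 0.07), Col3a1 (-1.29 ± 0.10), Nid1 of basement membranes (-1.19 ± 0.08) and Fn1, fibronectin (-0.75 ± 0.05). The fibroblast markers Lum and Dcn in the same list were not called, at -0.08 and -0.10 (both named after their values were seen). Alas2, a red cell gene, was lower at P24 (-0.80 ± 0.11), and its part in the vascular result was not tested.

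Astrocyte genes fell more often than they rose, with 15 of 34 tested lower (44.1%) and 6 higher (17.6%) and a median of -0.08. Of all genes tested 20.9% were lower and 20.2% higher, so the share that rose was near theirs. Aqp4, the water channel of astrocyte endfeet, counted 300.3, 320.3, 327, 276 and 321 CPM at P14 and 171, 186 and 206 CPM at P24 (lowest, median, highest), a log2 change of -0.71 ± 0.04 (adjusted p 1.01e-18). The glutamate transporter genes Slc1a3 (-0.37 ± 0.04) and Slc1a2 (-0.35 ± 0.03) fell, and Slc1a2 was the largest loss in CPM of all, from 5980.0 ± 163 CPM (SD, n = 5) to 4700.0 ± 163 CPM (SD, n = 6). Clu, clusterin (0.34 ± 0.04), Aldoc, the brain aldolase (0.28 ± 0.04), and Gpc4, a synaptogenic glypican (0.78 ± 0.08), rose.

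Microglial genes moved in both directions. Of 22 homeostatic genes 10 fell and 3 rose, among them P2ry12, the purine receptor of surveying microglia (-0.60 ± 0.05), and Fcrls (-0.88 ± 0.09), with a median of -0.18. Of 22 complement and phagocytic genes 7 rose (31.8%) and 5 fell (22.7%), against 20.2% and 20.9% of all genes tested, so that the share that fell was near theirs. The 3 C1q genes of complement lay between -0.31 and -0.09, and 2 of the 3 were called lower (grouped after their values were seen). C4b, complement component 4, counted 6.55, 6.28, 6.65, 7.55 and 5.83 CPM at P14 and 15.4, 17.5 and 20.2 CPM at P24 (lowest, median, highest), a log2 change of 1.41 ± 0.09 (adjusted p 5.45e-18), with no overlap. Gpnmb (1.71 ± 0.24), Spp1, osteopontin (0.84 ± 0.21), and Ctss, cathepsin S (0.53 ± 0.06), rose as well, while Igf1 (-0.86 ± 0.08) and Lpl, lipoprotein lipase (-0.55 ± 0.06), both of microglia that attend developing tracts as well as of other cells, fell. Of 22 interferon and antigen presentation genes 9 rose and 0 fell, with a median of 0.30, among them Ifi27 (0.70 ± 0.07) and Xaf1 (0.61 ± 0.12). Their summed level was low, 187 to 203 CPM at P14 and 224 to 241 CPM at P24.

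Markers of hippocampal fields rose in part. Of 16 dentate granule cell genes 11 were higher and 2 lower, with a median of 0.31. Calb1, the calcium buffer of mature granule cells, counted 131, 137, 127, 137 and 138 CPM at P14 and 166, 173 and 191 CPM at P24 (lowest, median, highest), a log2 change of 0.39 ± 0.04 (adjusted p 1.41e-10), with no overlap. Dsp (0.66 ± 0.05), C1ql3 (0.52 ± 0.04) and Lct (0.65 ± 0.06) rose, and Prox1, the transcription factor of granule cell identity, fell (-0.16 ± 0.05) with overlapping libraries, a call lost within libraries labelled wild type. Of 13 CA1 genes 7 rose and 2 fell, with Man1a (0.52 ± 0.06) higher and Nov (-0.39 ± 0.05) lower, and of 17 CA2 and CA3 genes 9 rose and 4 fell, with Nptx1 (0.59 ± 0.05) and Rgs14 (0.60 ± 0.05) higher.

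Of 33 interneuron genes 13 fell and 7 rose. Pvalb, the calcium buffer of fast-spiking basket cells, counted 25.4, 22.6, 25.8, 25.7 and 29.4 CPM at P14 and 39.2, 41.2 and 43.2 CPM at P24 (lowest, median, highest), a log2 change of 0.66 ± 0.06 (adjusted p 9.27e-13). Nos1, the neuronal nitric oxide synthase, rose by 0.72 ± 0.05. The transcription factors of interneuron development Lhx6 (-0.48 ± 0.08) and Sox6 (-0.41 ± 0.06) fell, as did Calb2, calretinin (-0.61 ± 0.06), which is also a thalamic marker in the list given above. Sst, the somatostatin gene, was at -0.04 and was not called (named after its value was seen). Among 25 neuropeptide and granin genes 10 fell and 4 rose, with Nts, neurotensin (-1.08 ± 0.08), and Adcyap1, PACAP (-1.07 ± 0.10), lower and Penk, proenkephalin (0.45 ± 0.10), higher.

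Genes that answer to hormones and to the time of day also moved. Of 21 glucocorticoid-responsive genes 13 rose and 1 fell, with a median of 0.33. Sgk1, a kinase induced by corticosteroids, counted 66.5, 64.7, 72.9, 64.9 and 66.2 CPM at P14 and 112, 121 and 138 CPM at P24 (lowest, median, highest), a log2 change of 0.86 ± 0.06 (adjusted p 4.96e-17). Plin4, a lipid droplet protein, rose by 1.64 ± 0.16 and Mt1, a metallothionein, by 0.46 ± 0.04, while Cdkn1a, the p21 inhibitor, fell (-0.79 ± 0.08). Sgk1 and Plin4 are also made by oligodendrocytes or vessels, and the part of those cells was not tested. Of 19 clock genes 11 rose and 0 fell, including Dbp (0.62 ± 0.06), Tef (0.36 ± 0.04), Per3 (0.55 ± 0.05) and Bhlhe41 (0.67 ± 0.06). The labels give no hour of collection, so age and hour cannot be told apart for these genes. In the thyroid hormone group 6 of 12 fell and 1 rose, led by Hr, a nuclear corepressor (-1.08 ± 0.07), and Dio2, the deiodinase that activates the hormone (-0.73 ± 0.04).

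Imprinted genes of the growth network fell in 12 of 22 cases and rose in 4. H19 (chromosome 7, 142575530 to 142578146), a maternally expressed RNA, counted 8.23, 6.43, 6.61, 5.73 and 7.42 CPM at P14 and 0.229, 0.960 and 1.21 CPM at P24 (lowest, median, highest), a log2 change of -3.12 ± 0.21 (adjusted p 1.29e-17). Igf2, its paternally expressed neighbour, and Nnat, neuronatin, fell (-0.88 ± 0.05 and -1.03 ± 0.04), while Dlk1 rose by 1.23 ± 0.21. Igf2 in brain comes largely from choroid plexus and leptomeninges. Of 21 choroid plexus and ependymal genes 6 rose and 1 fell, with a summed level of 1034 to 1619 CPM at P14 and 1083 to 1658 CPM at P24. Ttr was at -0.18 ± 0.09 and was not called, Enpp2 (0.59 ± 0.06) and Kl (0.74 ± 0.08) rose, and their part in the fall of Igf2 was not tested.

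Genes of energy metabolism changed by small amounts. Of 61 tested oxidative phosphorylation genes 40 were lower at P24 and 1 higher, yet none reached 1.5-fold, and the median was -0.21. Uqcrq of complex III (-0.46 ± 0.04), Cox6b1 (-0.40 ± 0.04) and Cox5a (-0.35 ± 0.04) of complex IV were among the falls. Of 22 genes of glycolysis and of glucose and lactate transport 8 rose and 5 fell, with Eno2, the neuronal enolase (0.45 ± 0.05), and Pfkl, a phosphofructokinase (0.41 ± 0.04), higher. Slc16a1, the lactate and ketone transporter MCT1, counted 137, 132, 136, 126 and 122 CPM at P14 and 57.5, 60.0 and 65.5 CPM at P24 (lowest, median, highest), a log2 change of -1.10 ± 0.05 (adjusted p 3.95e-25), with no overlap. Ldha, which makes lactate, fell (-0.44 ± 0.05). Of 71 ribosomal protein genes 16 fell (22.5%) and 2 rose (2.82%), with a median of -0.14. The share that fell was near the 20.9% of all genes tested, and the share that rose was below their 20.2%. Reads of ribosomal genes are shared with near-identical pseudogenes, and no source used here says how such reads were counted, which leaves these values uncertain.

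Some of the largest changes lay outside these groups. Tnfaip6 (chromosome 2, 52038113 to 52056681), a hyaluronan-binding protein induced by inflammation, showed the largest rise of all genes that met the rule for naming, 3.29 ± 0.21, with 0.441 to 0.655 CPM in P14 libraries and 4.00 to 6.58 CPM in P24 libraries. Sspo, the SCO-spondin gene (2.66 ± 0.15), Etnppl, an astrocytic phospholyase (2.25 ± 0.20), Itgb4, an integrin (1.91 ± 0.13), Cyp2j12 (2.71 ± 0.26), Tmprss6 (2.36 ± 0.30) and Pla2g2f (2.01 ± 0.22) rose several-fold from low levels. Among the falls were Pcdh12 (-2.33 ± 0.25) and Bcl6b (-1.98 ± 0.16), both of endothelium, Dgkk (-2.19 ± 0.24), Mkrn3, an imprinted gene whose loss causes early puberty (-1.96 ± 0.11), Kcne1l (-1.86 ± 0.10) and Cwh43 (-1.85 ± 0.17). Among abundant genes, Apc, the scaffold of beta-catenin breakdown and of microtubule ends, counted 2011, 2239, 2233, 2292 and 2268 CPM at P14 and 928, 988 and 1038 CPM at P24 (lowest, median, highest), a log2 change of -1.17 ± 0.04 (adjusted p 9.96e-30). The dendritic proteins and enzymes Ddn (0.81 ± 0.05) and Adcy1 (0.55 ± 0.04) and the axonal motor Kif5a (0.73 ± 0.05) were among the 6 largest gains in CPM that met the rule for naming.

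The age difference of 129S6 mice was set beside that of F1 mice, which share no library with them. In F1, 3471 genes were higher at P24 (22.1% of genes tested) and 3569 lower (22.7%). Of the 6446 genes called in 129S6, 4892 were also called in F1 (75.9% of the 129S6 calls and 69.5% of the F1 calls), 4881 of them in the same direction and 11 in the opposite one. Across the 15690 genes the log2 changes of the strains had a Pearson r of 0.792 and a Spearman rho of 0.763, a description, since genes are not independent replicates. The group medians were 1.12 in 129S6 and 1.14 in F1 for myelin, -0.36 and -0.35 for cholesterol synthesis, -0.88 and -0.89 for immature neurons, and -0.72 and -0.76 for mitotic genes. Endothelial genes had a median of -0.56 in 129S6 and -0.32 in F1. In some groups the medians differed in sign. They were -0.33 in 129S6 and 0.15 in F1 for NMDA receptor subunits, and 0.07 and -0.03 for GABA-A receptor subunits. For vesicle release they were 0.02 and -0.05. With 7 NMDA receptor subunits tested, each median of that group is the value of its middle gene. Calls in that group were alike, with 3 rises and 3 falls in 129S6 and as many in F1. None of the 7 was among the genes whose age change differed between strains (below). Differences of medians were not tested. The plot of the age change in both strains shows the 2 strains gene by gene.

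**Figure D5:**
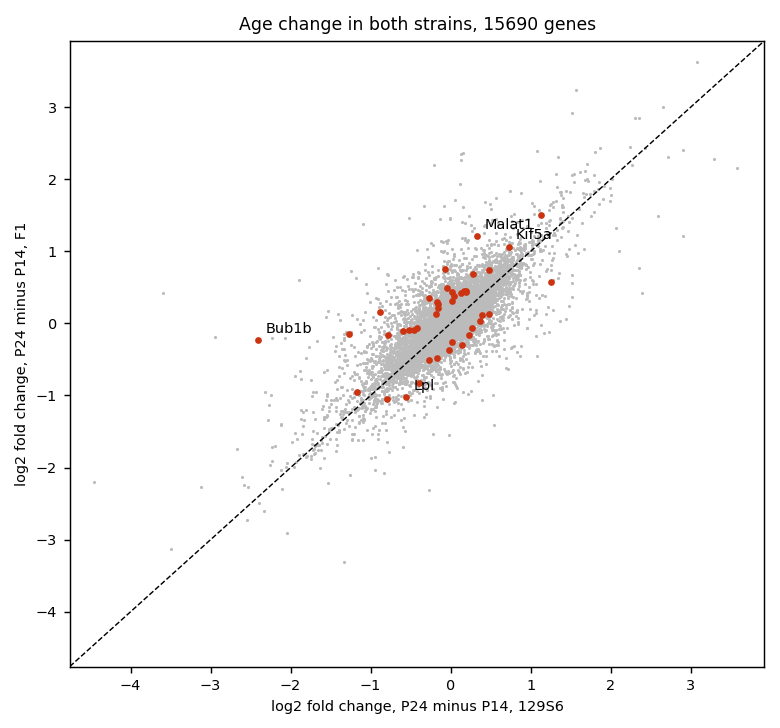
Log2 fold change, P24 minus P14, of 15690 genes in 129S6 (x axis) and F1 (y axis), with the 42 genes whose change differed between strains (adjusted p under 0.05) in red and the line of equal change dashed. Bub1b, at -2.41 in 129S6 and -0.23 in F1, lies farthest from the line among the 42.

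Tested directly, the age difference differed between the strains in 42 genes (0.268% of genes tested), 14 with the larger value in 129S6 and 28 with the smaller, while 2001 had an unadjusted p under 0.05. This count was not stable. It was 1 with all 25 libraries in the fit, 162 with DESeq2, and between 7 and 778 when single libraries were left out, with 778 without the P24 F1 library labelled Scn1a+/- replicate 1. Bub1b was at -2.41 ± 0.25 in 129S6 and at -0.23 ± 0.17 in F1, a difference of -2.18 ± 0.31 (adjusted p 4.56e-05 in edgeR), and it was called in all 26 alternatives where it was tested. In 129S6 it counted 1.87, 2.30, 1.96, 2.01 and 3.30 CPM at P14 and 0.272, 0.450 and 0.515 CPM at P24 (lowest, median, highest). Malat1, a nuclear RNA, rose less in 129S6 (0.33 ± 0.08) than in F1 (1.21 ± 0.08) and was called in 26 of 27 alternatives. Lpl was at -0.55 ± 0.06 in 129S6 and -1.02 ± 0.06 in F1, and Nov at -0.39 ± 0.05 and -0.82 ± 0.06, each called in 25 of 27 alternatives. Kif5a rose by 0.73 ± 0.05 in 129S6 and 1.07 ± 0.05 in F1 and was called in 24 of 27. Of the other named genes, Calb1, Camk4, Apc, Stbd1, Rerg, Wfs1, Tiprl, Pttg1, Tmem72, Mgp and Igsf9 were called in 7 to 18 of their alternatives.

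The age difference was also compared between labelled genotypes within 129S6. Of the 6446 called genes 6433 had the same sign in both, with 4692 genes called within libraries labelled Scn1a+/- and 3972 within libraries labelled wild type. The 6446 were called on the mean of both differences, which favours equal signs, so nothing is read from this agreement. By the labels 1 gene differed in its age change, Scn1a itself, by 0.52 ± 0.09 (adjusted p 0.00407 in edgeR), with 521 genes at an unadjusted p under 0.05. With the P24 labels exchanged 0 genes passed, with 898 at an unadjusted p under 0.05, and DESeq2 gave 1 gene by the labels and 0 with them exchanged.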

How the data were processed

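RNA was measured in pools of mouse hippocampus, 11 libraries of 129S6 and 11 of F1 without seizures. The authors deposited raw read counts per gene symbol for each library. Per the submitters' processing notes, CASAVA, TopHat2 2.1.0, HTSeq 0.6.1p1 and the build mm10 were used. Annotation and strand setting are not stated there, so reads of overlapping or antisense genes cannot be told apart. A deposited table of normalized values was not used. The files had 0 rows naming no gene.

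Counts of 22 libraries in 8 groups of age, strain and labelled genotype were fitted with edgeR 4.0.16 (R 4.3.3, limma 3.58.1), with TMM scaling, a filter at a minimum count of 10, the quasi-likelihood test and Benjamini-Hochberg adjustment over 15690 genes. The age contrast averaged labelled genotypes. CPM are on TMM effective library sizes. Ratios were tested by exact two-sided permutation over libraries. On simulated counts of the age comparison in 129S6 (15389 genes), 52% of genes changed 1.2-fold were recovered, 86% at 1.5-fold, 98% at 2-fold and 100% at 4-fold, and 17 of 15189 unchanged genes were called. Only 50 genes were changed at each fold, and genes of the lowest levels were not among them. The adjusted p depends on the share of changed genes, which was far smaller there than the share called in the data. These rates, that of false calls included, therefore need not hold for the data. DESeq2 1.42.0, other scalings, filters and sets of libraries, and the omission of each library were the alternatives.

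Named genes were Scn1a, the 12 largest rises and falls and the 6 largest gains and losses in CPM among called genes without overlap and a mean log2 CPM at or above 0, up to 4 called members per direction of each of 51 lists, the genes of 8 ratios, and the 6 largest strain differences in each direction. Up to 2 members were named of a list with none called. Some genes that met this rule are not reported here. Fibcd1, Grik4 and Ttr were named as tissue markers. The members and lists were chosen with earlier results of these data known. Promoter sequences and gene positions are from RefSeq, GRCm38.p6.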

Additional observations from a re-analysis of the deposited data

Results flagged for a closer look

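Among 216 of the genes named, the highest or lowest library of an age lay apart from the others in 38 of 432 comparisons. The gap was more than 0.71 of the range in the 5 P14 libraries or 0.625 in the 6 P24 libraries. Chance puts about 1 in 20 groups past these limits. The P14 library labelled Scn1a+/- replicate 1 stood apart in Apc (2011 CPM against 2233 to 2292), Atp2b3 (227 CPM against 189 to 199), Cyfip2 (661 CPM against 563 to 591), Gria1 (867 CPM against 732 to 761) and Grin2b (129 CPM against 99.1 to 107). It also stood apart in Ldha (173 CPM against 149 to 156), Nrcam (377 CPM against 329 to 338), Rgs5 (62.1 CPM against 67.2 to 69.3), Stmn2 (764 CPM against 694 to 709) and Tubb2b (223 CPM against 206 to 211). It also stood apart in Wfs1 (187 CPM against 121 to 132). At P14, the library labelled Scn1a+/- replicate 2 stood apart in Calb2 (77.5 CPM against 66.8 to 69.8), Dgkk (11.0 CPM against 3.30 to 5.42), Dlk1 (4.69 CPM against 1.82 to 2.53), Slc17a6 (63.1 CPM against 46.3 to 46.9) and Slc6a11 (213 CPM against 159 to 164). It also stood apart in Vamp1 (103 CPM against 79.2 to 85.5). The P14 library labelled Scn1a+/- replicate 3 stood apart in Sgk1 (72.9 CPM against 64.7 to 66.5). At P14, the library labelled wild type replicate 1 stood apart in Fxyd6 (269 CPM against 277 to 280.0). The P14 library labelled wild type replicate 2 stood apart in Col3a1 (22.6 CPM against 16.8 to 18.4), Slc2a1 (82.8 CPM against 67.0 to 70.2), Slit1 (95.8 CPM against 111 to 116) and Sqle (102 CPM against 110.4 to 112). At P24, the library labelled Scn1a+/- replicate 1 stood apart in Fxyd7 (59.3 CPM against 49.4 to 51.3), Igf2 (129.8 CPM against 105 to 112), Pdgfra (102 CPM against 111 to 115), Pllp (75.5 CPM against 69.5 to 70.7) and Vamp1 (115 CPM against 120.0 to 122). The P24 library labelled Scn1a+/- replicate 2 stood apart in Ctss (42.1 CPM against 49.6 to 52.5). At P24, the library labelled Scn1a+/- replicate 3 stood apart in Mal (511 CPM against 559 to 586). The P24 library labelled wild type replicate 1 stood apart in Col3a1 (11.6 CPM against 6.25 to 8.09). At P24, the library labelled wild type replicate 2 stood apart in Kif5a (4643 CPM against 4031 to 4229). The P24 library labelled wild type replicate 3 stood apart in Camk4 (226 CPM against 204 to 210.1), Cyfip2 (791 CPM against 852 to 869), Drd5 (13.9 CPM against 16.1 to 17.3), Mkrn3 (6.88 CPM against 3.68 to 4.51) and Slc6a11 (113 CPM against 126 to 133). It also stood apart in Snap25 (1946 CPM against 1708 to 1790.0).

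The age change differed between 129S6 and F1, by the interaction term in edgeR, in 16 genes named. The difference, 129S6 minus F1 in log2 change, was above 0 in Stbd1 (0.67 ± 0.15), Lpl (0.47 ± 0.09), Rerg (0.44 ± 0.10), Nov (0.43 ± 0.08), Wfs1 (0.40 ± 0.09), Tiprl (0.35 ± 0.07), Calb1 (0.28 ± 0.06) and Camk4 (0.25 ± 0.06). It was below 0 in Bub1b (-2.18 ± 0.31), Pttg1 (-1.13 ± 0.27), Malat1 (-0.88 ± 0.11), Tmem72 (-0.83 ± 0.20), Mgp (-0.63 ± 0.15), Igsf9 (-0.61 ± 0.15), Kif5a (-0.34 ± 0.06) and Apc (-0.22 ± 0.05). Bub1b was called in 26 of 26 alternatives and Apc, Mgp, Tmem72 and Wfs1 in 7 of theirs.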

How the results depend on the processing

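The number of genes called between the ages was 6446. It was 1850 when a change beyond 1.2-fold was tested, 3972 within libraries labelled wild type, and 5564 to 6287 when 1 library was left out. Scaling by library totals called 6413, of which 6006 were among the 6446, with 42.5% higher. Of the 216 genes examined, only Scn1a reversed, at -0.0183 within libraries labelled wild type (adjusted p 0.878 in edgeR), whose P24 labels are in doubt. Calls of Adamts1, Chrna5, Gabrd, Gabrg3, Gal3st1, Grin2b, Ier2, Ina, Malat1, Map1b, Mgp, Nefh, Oprk1, Prox1, Spp1 and Wfs1 were lost under at least 1 alternative other than the 1.2-fold test. The strain interaction (42 genes) was the least stable count, at 162 with DESeq2, 222 without the low count filter, 1 with all 25 libraries, and 7 to 778 when 1 library was left out. The labelled genotype interaction (1 gene) was 7 without the filter, 0 with all 25 libraries, and 0 to 2 when 1 library was left out. With the P24 labels exchanged (0 genes) it was 18 without the filter and 0 to 1 with 1 library left out. Nefh over Ina, at -0.04, ranged from -0.089 to -0.0239 with 1 library left out and passed only without the P14 library labelled wild type replicate 1 (exact permutation, adjusted p 0.019). On the gene strand alone, E2F-like letters were in 1.25% of promoters, CHR in 10.1%, CCAAT in 21.7% and the sterol element in 0.352%. Where 1 library was left in a group, it was assumed to vary like the others. The cause of these shifts was not tested. No paired analysis was possible because titles number libraries over the whole series, and replicate numbers given in accession order pair nothing. Depth limits genes of few CPM, such as Cdk1 and Tnfaip6.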

Other observations

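Gene groups outside the comparisons above are given beside the shares over all genes tested in 129S6, of which 20.2% were higher at P24 and 20.9% lower. Of 17 developmental RNA-binding and chromatin genes 7 fell (41.2%) and 1 rose (5.88%). Dnmt3a, a DNA methyltransferase (294 to 328 CPM at P14 and 149 to 169 CPM at P24), Tet1, which oxidises methylcytosine (-0.97 ± 0.05), and Ezh2, the methyltransferase of Polycomb (-0.53 ± 0.10), fell, and the linker histone gene H1f0 rose (0.36 ± 0.04). Of 35 tested receptors for monoamines, acetylcholine, opioids and cannabinoids 7 rose (20%) and 8 fell (22.9%), shares near those of all genes. Drd5 of dopamine (0.71 ± 0.09), Htr4 (0.64 ± 0.09) and Htr1a (0.58 ± 0.05) of serotonin rose, and Oprk1, the kappa opioid receptor (-0.99 ± 0.26), and Chrna5, a nicotinic subunit (-0.56 ± 0.15), fell.

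Of 17 sodium and calcium pump and exchanger genes 5 rose and 5 fell (29.4% each). Fxyd7 (-1.08 ± 0.05) and Fxyd6 (-0.77 ± 0.04), regulators of the sodium pump, fell, and Atp2b3, a plasma membrane calcium pump (0.27 ± 0.04), rose. Of 36 immediate early genes 4 rose (11.1%) and 10 fell (27.8%), with Ptgs2, cyclooxygenase 2 (0.83 ± 0.10), and Dusp5, a phosphatase (0.75 ± 0.15), higher and Ier2 (-0.57 ± 0.12) lower. Of 11 neocortical marker genes 1 rose (9.09%) and 2 fell (18.2%), and of 11 striatal marker genes 2 rose (18.2%) and 3 fell (27.3%). With 11 genes in each list, nothing is read from these shares. The summed level of the neocortical genes was 372 to 448 CPM at P14 and 366 to 392 CPM at P24.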
